A study of Homo sapiens with 42 samples.

Results

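The comparison covers the A-to-G changes that the adenosine deaminase TadA-8e wrote into the poly(A) RNA of HEK293T cells when it carried an endoplasmic reticulum (ER) membrane signal, set against the same enzyme with a signal for the cytoplasm. HEK293T is a human embryonic kidney line that carries the SV40 T antigen, and its genotype was given as wild type. Cells received either ERM_TadA-8e_GFP, whose ERM signal is meant to anchor the enzyme at the ER membrane, or NES_TadA-8e_GFP, whose nuclear export signal is meant to keep it in the cytoplasm. Both plasmids were delivered with lipofectamine and expressed transiently, GFP-positive cells were sorted, and stranded libraries were made from poly(A)-selected RNA, 2 per construct. The labels do not say whether the 2 libraries came from separate cultures, and p-values cover the spread between these libraries alone. The amount and the location of each enzyme were not measured in the tables used, and the rates of GFP control cells were not analysed here.

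All rows of the tables of called sites of both constructs entered, 371699 sites for ERM and 907935 sites for NES, of 1854497 in the 3 HEK293T poly(A) tables, with that of the nuclear construct (NLS). A site is an adenosine position on 1 strand of hg38, and its rate is the percentage of reads there that carried the change in 1 library. Called in both tables were 356643 sites, which are 95.9% of the ERM sites and 39.3% of the NES sites, while 15056 sites were called with ERM alone and 551292 with NES alone. Of 10230 gene names in either table, 8828 had a shared site, 1944 had fewer than 5 shared sites, 1 was left out, and 6883 were tested. A tested gene had a median of 30 shared sites and at most 748. No read counts stand beside the rates, so the depth of a site is unknown and no counting interval can be given. Of 8 marker genes of HEK293T cells, 6 had sites with ERM (204 sites) and 7 had sites with NES (947 sites). Of 8 erythroid markers, none had a site with either construct.

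TadA-8e is a laboratory-evolved form of a bacterial tRNA adenosine deaminase. It turns adenosines of single-stranded stretches into inosine, which is read as G after reverse transcription. Messenger RNAs of secreted and membrane proteins are brought to the ER while they are being translated, when the signal recognition particle binds the emerging signal sequence and docks the ribosome on the translocon. Messenger RNAs of cytosolic, nuclear and most mitochondrial proteins are translated mainly by ribosomes outside the ER, although ribosomes at the ER also translate some of them. Tail-anchored membrane proteins are inserted after translation has ended.

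The changed bases can be shown where a site lies within the window around a gene start held by the RefSeq table of GRCh38.p14. The adenosine that was read as G is in capitals with 10 bases on each side, written 5′ to 3′ on the transcribed strand, and the number after the plus sign counts bases from the gene start. These 12 sites of 7 genes were chosen after their values were seen, to show mRNAs of both translation routes and the bases before the changed adenosine.
EEF1A1 +25: gtttgccgccAgaacacaggt
EEF1A1 +28: tgccgccagaAcacaggtaag
EEF1A1 +30: ccgccagaacAcaggtaagtg
ENO1 +4: cgcggacagtAtctgtgggta
ENO1 +23: tacccggagcAcggagatctc
ENO1 +29: gagcacggagAtctcgccggc
ATF4 +32: ccacagatgtAgttttctctg
SERP1 +1: aacccaaagtAgatcgaggcg
SERP1 +21: ggcgggctgcAcattcccgtt
CALR +37: gggtcgttttAaagggcccgc
LMAN1 +38: ggatccaggcAaaggggtctc
TMED10 +34: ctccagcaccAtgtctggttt

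The windows lie at chr6:73520993-73521018 on the minus strand for EEF1A1, translation elongation factor 1 alpha, and at chr1:8878648-8878693 on the minus strand for ENO1, the glycolytic enolase. For ATF4, a stress-induced transcription factor, the window is chr22:39520580-39520600 on the plus strand. For SERP1, a small translocon-associated membrane protein, they cover chr3:150546466-150546506 on the minus strand. For CALR, the ER chaperone calreticulin, the window is chr19:12938635-12938655 on the plus strand. For the cargo receptors LMAN1 and TMED10, the windows are chr18:59359218-59359238 and chr14:75176569-75176589 on the minus strand. All changed bases lie within the 50 bases after the annotated gene start, and the exon and UTR annotation was not used here.

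Within the 3 EEF1A1 sites, position +28 had rates of 0.260 and 0.245% in the ERM libraries, against 2.88 and 3.31% in the NES libraries. Position +30, with 1 base between them, had 1.35 and 1.04% with ERM, against 4.44 and 4.49% with NES. Position +25 had 0.265 and 0.296% with ERM, against 1.34 and 1.31% with NES. Both ERM libraries were below both NES libraries at each of these sites, and the log2 ratio of the means differed among them, at -3.62, -1.90 and -2.24 for positions +28, +30 and +25. The ENO1 position +4 had 12.2 and 8.78% with ERM, against 17.8 and 15.3% with NES. In CALR, position +37 had 16.7 and 14.2% with ERM, against 21.2 and 17.5% with NES. These 2 sites follow a T and stand among the highest rates printed, whereas the EEF1A1 sites follow a C or an A. The ATF4 position +32 also follows a T, with 4.40 and 4.10% for ERM. These are below the 7.35 and 8.00% for ERM at LMAN1 position +38, which follows a C. The SERP1 position +1 had 12.5 and 14.3% with ERM, against 35.2 and 18.8% with NES, so the NES libraries themselves differed there by more than the ERM rate.

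Averaged over the shared sites, the rate was lower with the ER membrane enzyme. The mean was 9.04 and 8.85% in the ERM libraries, against 14.6 and 14.5% in the NES libraries. Neither ERM library reached either NES library, and the difference was -5.62 percentage points (8.94 ± 0.130% with ERM and 14.6 ± 0.0260% with NES, SD, n = 2 each). An exact two-sided permutation test gave p = 0.333, the smallest p that 2 against 2 libraries allow. In a bulk library, fewer cells with active enzyme and fewer changed molecules per cell cannot be told apart. The median shared site had 6.69 and 6.52% with ERM, against 11.8 and 11.7% with NES. The middle 80% of shared sites ran between 1.67 and 19% in ERM replicate 1, and between 3.42 and 29.4% in NES replicate 1.

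The share of NES sites that were also called with ERM went with their NES rate. Of the NES sites with a rate under 5%, 21.7% were also called with ERM. The share was 35.1% at 5 to 10%, 48.2% at 10 to 20%, 63.4% at 20 to 40% and 79.6% at 40% and above. The shared sites therefore hold more of the strongly changed NES sites than the NES table as a whole, whose mean over all its sites was 11.1% in each NES library. Over its own sites, ERM averaged 9.09 and 8.90%.

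Per gene, the rate was taken as the mean over the gene's shared sites, and its log2 difference, ERM minus NES, was tested with limma. As deposited, 6279 of 6883 genes (91.2%) were lower with ERM at an adjusted p under 0.05, and 4 (0.0581%) were higher, namely LONRF1, PAGR1, MTARC1 and BARX2. The median log2 difference as deposited was -0.66. Genes are therefore described relative to the median gene, by centring each library on the median of all tested genes, a shift of 0.65. Higher and lower, when said of a gene, refer to this centred difference. By it, 867 genes (12.6%) were higher with ERM and 1620 (23.5%) were lower. The count of higher genes was 457 without ERM replicate 1 and 499 without ERM replicate 2. Both ERM libraries lay above both NES libraries after centring for 30.5% of genes, and below both for 37.9%.

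**Figure D1:**
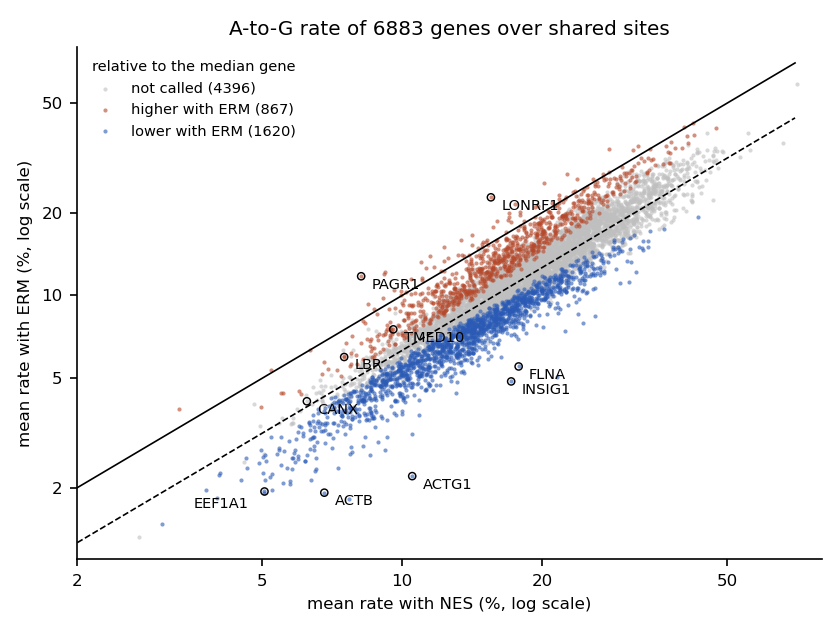
Mean A-to-G rate of each of the 6883 tested genes over its shared sites, in percent on log scales, with ERM on the vertical and NES on the horizontal axis. The solid line marks equal rates and the dashed line the median gene; most points lie under the solid line, and colours mark the 867 higher and 1620 lower genes relative to the median gene.

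A gene's difference moved with a proxy of how deeply its sites were read. The proxy is the authors' -log10 adjusted p-value per percentage point of rate, averaged over the 4 libraries of a site and taken as the median over a gene's sites, and genes were cut into 10 bins of equal size by it, from bin 1 with the lowest to bin 10 with the highest values. In bin 1 the median difference was 0.17, with 123 genes higher and 3 lower. In bin 10 it was -0.25, with 22 higher and 482 lower. The Spearman correlation over the 6883 genes was -0.50, and genes share the same 4 libraries. The proxy divides by the same rates that form the difference, so proxy, rate and difference are not independent measures. The adjusted p-value may depend on the rate as well, and how the rate alone moves the proxy was not tested. The rates themselves moved too, with medians of 22.0% for ERM and 30.9% for NES in bin 1 and of 4.85% for ERM and 9.05% for NES in bin 10. Of a gene's NES sites, a median of 21.4% were also called with ERM in bin 1 and 52.5% in bin 10. The part of depth in the differences between genes was not tested. Each list is therefore also given with the libraries centred within these depth bins, a setting added after the data had been seen, and so is each named gene whose call changed. Where no such value stands beside a gene, its call and direction were the same within depth bins. Within depth bins, 976 genes (14.2%) were higher and 941 (13.7%) lower, and the median over all genes was 0.00.

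**Figure D2:**
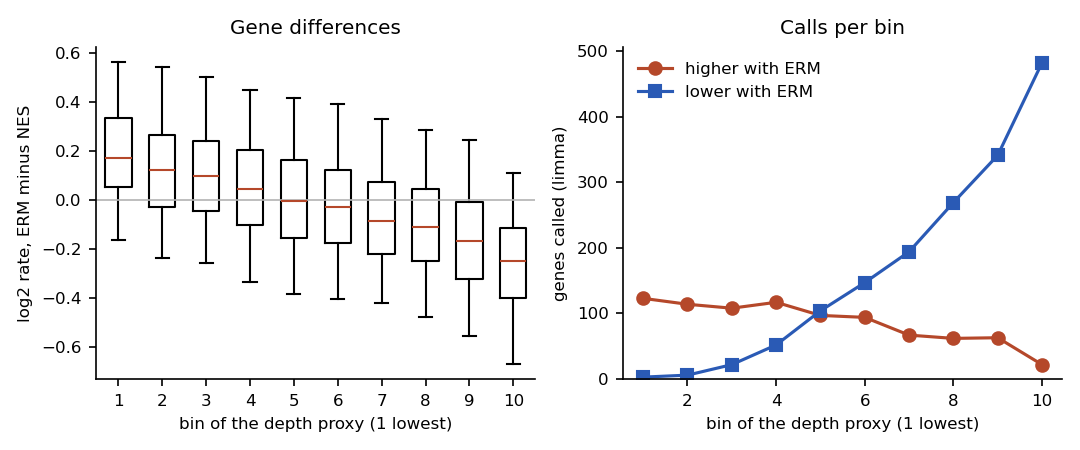
Left, log2 difference of genes, ERM minus NES relative to the median gene, by bin of the depth proxy, with boxes for the middle 50%, whiskers to the 5th and 95th percentile and the median as a line. Right, number of genes called higher or lower with ERM in each bin; lower calls run from 3 in bin 1 to 482 in bin 10.

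Among the genes with the largest differences, the lower end held 4 mRNAs of actin and actin-binding proteins. ACTG1 (gamma actin, chr17:81510000-81512303) had rates of 2.19 and 2.22% with ERM, against 10.6 and 10.4% with NES, over 101 shared sites. Both ERM libraries stood far below both NES libraries, the log2 difference was -1.60 (SE 0.0467, limma adjusted p = 6.82e-11), and both ERM libraries were below both NES libraries at 98 of the sites and above at none. Such counts are of rates as deposited, where 75.9% of all shared sites were below and 1.99% above. ACTB (beta actin, chr7:5527200-5530570) had 1.95 and 1.88% with ERM, against 6.87 and 6.73% with NES, a difference of -1.18 (SE 0.0401, limma adjusted p = 3.64e-10). Actin genes have near-identical copies, so reads of ACTG1 and ACTB may be shared between them. TMSB10, a thymosin that binds actin monomers, had 3.01 and 2.46% with ERM and 8.44 and 9.96% with NES, at -1.10 (SE 0.122). FLNA, the actin crosslinker filamin A, had 5.67 and 5.37% with ERM and 18.6 and 17% with NES, at -1.04 (SE 0.0712). These 4 mRNAs remained lower within depth bins, with differences of -1.36, -0.93, -0.86 and -0.92.

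Other mRNAs at the lower end were NEFM, EIF4A2, ATF4, HSPA8, PFKL and KLF9. NEFM, a neurofilament chain that HEK293T cells express, had 5.06 and 5.01% with ERM, against 21.2 and 21.9% with NES, and 12 of its 173 NES sites were also called with ERM. Its difference was -1.45 (SE 0.121, limma adjusted p = 1.41e-06). EIF4A2, an RNA helicase of translation initiation, had 3.12 and 3.12% with ERM, against 10.5 and 10.4% with NES, and all 100 shared sites were lower in both ERM libraries, at -1.10 (SE 0.0462, limma adjusted p = 2.71e-09). ATF4, a transcription factor translated through upstream reading frames, had 2.57 and 2.68% with ERM and 8.53 and 8.48% with NES, at -1.05 (SE 0.053, limma adjusted p = 1.56e-08). Its printed start site at position +32 had 4.40 and 4.10% with ERM, against 13.0 and 12.9% with NES. HSPA8, the constitutive cytosolic HSP70, had 2.34 and 2.37% with ERM and 7.23 and 7.29% with NES over 332 sites, at -0.97 (SE 0.0273, limma adjusted p = 6.82e-11). PFKL, a phosphofructokinase, and KLF9, a zinc finger transcription factor, had differences of -0.98 and -0.95 on 8 and 5 shared sites.

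INSIG1 stood among the most reduced mRNAs although its protein lies in the ER membrane, where it retains the sterol sensor SCAP. Its rates were 4.65 and 5.08% with ERM, against 18.4 and 15.9% with NES, over 11 shared sites at chr7:155298530-155310015. Both ERM libraries were below both NES libraries at all 11 sites, and the difference was -1.17 (SE 0.135, limma adjusted p = 2.44e-05). Of 121 NES sites in the gene, the other sites were not called with ERM, so the value rests on a small part of them. Within depth bins the difference was -1.10 (limma adjusted p = 0.000104).

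The upper end held genes with few shared sites. Of their NES sites, 5 of 19 were shared for LONRF1, 12 of 23 for PAGR1, 8 of 34 for MTARC1 and 7 of 14 for BARX2. Sites not called with ERM do not enter, so the mean over the shared ones can lean toward higher ERM rates. LONRF1, a RING finger protein, had 24.3 and 21.1% with ERM, against 16.1 and 15% with NES, on 5 sites, and PAGR1, a partner of a histone methyltransferase complex, had 12.2 and 11.3% with ERM, against 6.71 and 9.61% with NES, on 12 sites (chr16:29816872-29820013). In both genes each ERM library exceeded each NES library, at 1.20 (SE 0.176, limma adjusted p = 0.000181) and 1.20 (SE 0.16, limma adjusted p = 8.47e-05). MTARC1, a mitochondrial outer membrane reductase, had 12.4 and 12% with ERM and 9.44 and 8.93% with NES on 8 sites, at 1.06 (SE 0.143, limma adjusted p = 9e-05). BARX2, a homeobox factor, had 27.1 and 24.2% with ERM and 20.9 and 19.5% with NES on 7 sites, at 1.00 (SE 0.153, limma adjusted p = 0.000267). These 4 are the genes that were also higher as deposited.

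SLC7A6, an amino acid transporter, and SRD5A3, a reductase of dolichol synthesis in the ER membrane, followed with 0.96 and 0.90. As deposited, SRD5A3 had 16.4 and 15.4% with ERM, against 12.7 and 14% with NES, with both ERM libraries above both NES libraries. SLC7A6 had 23.4 and 19.5% with ERM, against 14.4 and 20.7% with NES, and its libraries overlapped. GALM, a cytosolic sugar mutarotase, and SPIN4, a spindlin family protein, stood at 0.94 and 0.94. The names COG8,PDF and GPHN,PALS1 join overlapping genes, whose reads cannot be assigned to 1 of them, and stood at 1.08 and 0.96. All of these genes had between 5 and 12 shared sites. The shared sites were 6 of 32 NES sites for SLC7A6, 12 of 20 for SRD5A3, 6 of 19 for GALM and 5 of 32 for SPIN4. For COG8,PDF they were 7 of 15 and for GPHN,PALS1 5 of 58.

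**Figure D3:**
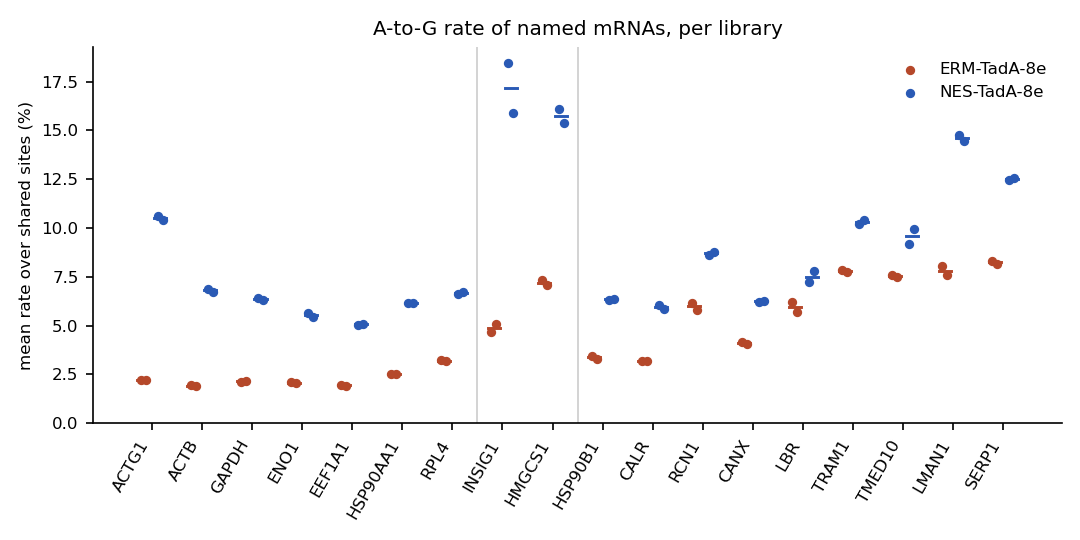
Mean rate over shared sites in percent, per library (points) with the mean of both libraries (bars), for mRNAs of cytosolic proteins (left), of sterol metabolism (middle) and of ER or secretory pathway proteins (right), with ERM left of NES for each gene. Actin rates with ERM are near 2%, and LBR and TMED10 show the smallest gaps between constructs.

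The mRNAs of ER lumen folding proteins did not move as 1 group. Of 27 tested out of 30 listed, 7 were higher (25.9%) and 10 were lower (37.0%), with a median difference of -0.02. Over all tested genes 12.6% were higher and 23.5% lower, with a median of -0.01. Within depth bins these shares of all genes were 14.2 and 13.7%. The shares in brackets for the lists below are to be read beside the 12.6 and 23.5%. Their median depth bin was 9, and within depth bins 11 were higher and 3 lower, with a median of 0.09. HSP90B1, the ER form of HSP90, had 3.45 and 3.28% with ERM, against 6.32 and 6.37% with NES, over 303 sites. Every ERM library was lower than every NES library, and the difference of -0.27 (SE 0.0285, limma adjusted p = 1.31e-05) became -0.02 (adjusted p = 0.618) within depth bins. Calreticulin (CALR), a lectin chaperone, showed the same kind of values, with 3.19 and 3.18% for ERM and 6.07 and 5.83% for NES, at -0.25, but did not pass within depth bins, at -0.01 (adjusted p = 0.904). CALU, the calcium-binding calumenin, was lower in both settings, at -0.32 and -0.14. RCN1, the related reticulocalbin 1, had 6.15 and 5.8% with ERM, against 8.61 and 8.77% with NES, and was higher, at 0.11 (SE 0.039, limma adjusted p = 0.0449), and at 0.35 within depth bins.

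Chosen after their values were seen, 3 further lumen proteins mark the ends of this list. SERPINH1, the collagen chaperone HSP47, had 6.38 and 6.45% with ERM, against 15.7 and 15.9% with NES, and all 92 shared sites were lower in both ERM libraries. It was lower, at -0.65 (SE 0.0488, limma adjusted p = 5.34e-07), and at -0.40 within depth bins. PDIA4, a disulfide isomerase, had 4.00 and 4.83% with ERM, against 5.53 and 5.54% with NES, at 0.32 (SE 0.0835, limma adjusted p = 0.01). SDF2L1, a co-factor of the HSP70 of the ER, had 7.85 and 8.02% with ERM, against 7.23 and 9.38% with NES, on 10 sites. The ERM libraries of SDF2L1 lay between the NES libraries as deposited, and the centred difference was 0.60 (SE 0.151, limma adjusted p = 0.00799).

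Membrane proteins of translocation, glycosylation and ER shape gave 13 higher (28.9%) and 11 lower (24.4%) mRNAs of 45 tested out of 46 listed. Their median was -0.02 and their median depth bin 8. Within depth bins, 17 were higher and 2 lower, with a median of 0.12. LBR, a sterol reductase of the inner nuclear membrane and the ER, had 6.23 and 5.72% with ERM, against 7.23 and 7.77% with NES, over 213 sites (chr1:225401647-225424086). As deposited both ERM libraries were below both NES libraries, at the gene and at 91 sites, and above them at 12 sites, beside 75.9% and 1.99% of all shared sites. Relative to the median gene LBR was higher, at 0.32 (SE 0.0433, limma adjusted p = 9.32e-05), and at 0.49 within depth bins. TRAM1, which helps nascent chains enter the translocon, had 7.84 and 7.72% with ERM and 10.2 and 10.4% with NES, at 0.24 (SE 0.036, limma adjusted p = 0.000185). CANX, the membrane-bound lectin chaperone calnexin, had 4.18 and 4.06% with ERM, against 6.21 and 6.26% with NES, over 606 sites (chr5:179699032-179731206). It did not pass the test, at 0.05 (SE 0.0196, limma adjusted p = 0.0539), and was higher within depth bins, at 0.30 (adjusted p = 5.45e-07). Its sign turned to -0.07 with the mean of log2 site rates and to -0.12 with the median of site rates. STT3B, a catalytic subunit of oligosaccharyltransferase, was lower, at -0.10 (SE 0.0351, limma adjusted p = 0.0457), but did not pass within depth bins, at 0.02 (adjusted p = 0.674).

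Of the same list, SSR3 and SEL1L were picked after their values were seen. SSR3, a subunit of the translocon-associated protein complex, had 7.42 and 6.99% with ERM, against 9.41 and 8.82% with NES, at 0.31 (SE 0.043, limma adjusted p = 0.000112). SEL1L, the adaptor of an ER ubiquitin ligase that clears misfolded proteins, had 13.7 and 15.5% with ERM, against 15 and 15.1% with NES. The ERM and NES libraries of SEL1L overlapped as deposited, and relative to the median gene it was higher, at 0.60 (SE 0.0953, limma adjusted p = 0.000325).

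Cargo receptors and Golgi membrane proteins had 8 higher (24.2%) and 9 lower (27.3%) mRNAs, with all 33 listed members tested. Their median was -0.06 and their median depth bin 7. Within depth bins the counts were 11 higher and 4 lower, with a median of 0.05. TMED10, a p24 cargo receptor, had 7.57 and 7.48% with ERM, against 9.2 and 9.94% with NES, over 162 sites (chr14:75131646-75176579), and was higher, at 0.30 (SE 0.0435, limma adjusted p = 0.000145). LMAN1, the lectin ERGIC-53 that carries glycoproteins out of the ER, had 8.03 and 7.59% with ERM, against 14.8 and 14.4% with NES, and was lower, at -0.25 (SE 0.0329, limma adjusted p = 6.76e-05). The 2 receptors thus moved in opposite directions, and kept them within depth bins, at 0.42 and -0.13. At the printed start sites, TMED10 +34 had 7.59 and 5.62% with ERM, against 8.98 and 11.6% with NES, and LMAN1 +38 had 7.35 and 8.00% with ERM, against 16.6 and 24.8% with NES.

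Sterol and fatty acid enzymes and regulators of the ER membrane gave 2 higher (8.00%) and 11 lower (44.0%) mRNAs of 25 tested out of 30 listed. The median was -0.10, and -0.01 within depth bins, where 5 were higher and 7 lower. SCD, the stearoyl-CoA desaturase, had 4.43 and 3.66% with ERM, against 6.26 and 6.52% with NES, over 297 sites, did not pass the test at -0.02 (SE 0.0581, limma adjusted p = 0.839), and was higher within depth bins, at 0.23 (adjusted p = 0.0136). HSD17B12, a reductase of fatty acid elongation, and SC5D, a sterol desaturase, did not pass either, at 0.00 and 0.06. Within depth bins HSD17B12 was higher, at 0.12 (adjusted p = 0.0481), and SC5D did not pass, at 0.13 (adjusted p = 0.0538). ELOVL5, a fatty acid elongase, had 7.18 and 6.88% with ERM, against 12.8 and 12.7% with NES, at -0.21 (SE 0.0364, limma adjusted p = 0.000665), but did not pass within depth bins, at -0.03 (adjusted p = 0.509). Named after their values were seen, SQLE, DHCR7 and MSMO1 are membrane enzymes of cholesterol synthesis. SQLE, squalene epoxidase, had 4.14 and 4.11% with ERM and 9.78 and 9.49% with NES, at -0.57 (SE 0.0511, limma adjusted p = 2.48e-06). DHCR7, which makes the last step to cholesterol, and MSMO1, a sterol oxidase with 7 shared sites, were lower, at -0.48 and -0.61. INSIG1 and these 3 mRNAs were lower in both settings, with SQLE, DHCR7 and MSMO1 at -0.40, -0.41 and -0.57 within depth bins.

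Cytosolic enzymes of the same pathways had 4 lower (36.4%) and no higher mRNAs of 11 tested out of 14 listed, with a median of -0.10. Within depth bins 2 were higher and 3 lower, with a median of -0.04. ACLY, which makes cytosolic acetyl-CoA, had 4.56 and 4.19% with ERM, against 7.11 and 7.34% with NES, over 140 sites, and did not pass the test, at -0.07 (SE 0.0446, limma adjusted p = 0.212). GGPS1, which makes geranylgeranyl diphosphate, did not pass either, at 0.17, and both were higher within depth bins, at 0.17 (adjusted p = 0.0136) and 0.24 (adjusted p = 0.0203). HMGCS1, which makes HMG-CoA, had 7.33 and 7.07% with ERM, against 16.1 and 15.4% with NES, and was lower, at -0.48 (SE 0.0523, limma adjusted p = 1.48e-05). FASN, fatty acid synthase, had 5.45 and 5.4% with ERM, against 10.5 and 11.6% with NES, at -0.38 (SE 0.0604, limma adjusted p = 0.000349). IDI1, an isomerase of isoprenoid synthesis picked after its values were seen, had 5.02 and 4.72% with ERM and 12.6 and 12.9% with NES, at -0.74 (SE 0.0622, limma adjusted p = 1.46e-06). HMGCS1 and DHCR7 had about the same difference, FASN lay above both, and IDI1 lay below SQLE.

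Secreted and matrix proteins gave 1 higher (5.00%) and 7 lower (35.0%) mRNAs of 20 tested out of 41 listed, with a median of -0.22. Within depth bins 1 was higher and 5 were lower, with a median of -0.18. NID1, the basement membrane protein nidogen 1, had 8.34 and 7.85% with ERM, against 16.9 and 17.6% with NES, at -0.44 (SE 0.0451, limma adjusted p = 8.42e-06). LAMC1, a laminin chain, had 9.61 and 9.4% with ERM, against 14.6 and 15.9% with NES, and did not pass the test, at -0.03 (SE 0.0507, limma adjusted p = 0.64), and 0.00 within depth bins. NUCB1, a calcium-binding protein of the Golgi lumen, had 6.93 and 6.95% with ERM and 13.9 and 13.5% with NES, at -0.33 (SE 0.0591, limma adjusted p = 0.000767). CLU, the secreted chaperone clusterin, chosen after its values were seen, had 11 and 11.1% with ERM, against 29 and 29.8% with NES. All 48 of its sites were lower in both ERM libraries, at -0.76 (SE 0.0662, limma adjusted p = 2.08e-06), and it stood at -0.76 within depth bins, in depth bin 5. Relative to the median gene, the difference of CLU is of the size of that of the cytosolic ENO1 mRNA, at -0.77. ENO1 lies in depth bin 10, and its difference was smaller than that of CLU within depth bins, at -0.52.

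Lysosomal proteins had 3 higher (10.7%) and 5 lower (17.9%) mRNAs of 28 tested out of 34 listed, beside 12.6 and 23.5% of all tested genes. Their median was -0.08 in both settings, and 5 were higher and 3 lower within depth bins. LAMP2, a membrane glycoprotein of lysosomes, had 10.3 and 10.3% with ERM, against 14.4 and 14.1% with NES, and was higher, at 0.18 (SE 0.0412, limma adjusted p = 0.00443). PSAP, the precursor of saposins, had 6.26 and 6.25% with ERM, against 12.2 and 11.7% with NES, and was lower, at -0.28 (SE 0.0484, limma adjusted p = 0.000538), but did not pass within depth bins, at -0.11 (adjusted p = 0.107).

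Cell surface receptors and adhesion proteins gave 5 higher (17.9%) and 10 lower (35.7%) mRNAs of 28 tested out of 54 listed, with a median of 0.03. Within depth bins 4 were higher and 6 lower, with a median of 0.02. ITGB1, the integrin beta 1 chain, had 8.41 and 8.62% with ERM, against 12 and 12.6% with NES, and was higher, at 0.12 (SE 0.0408, limma adjusted p = 0.0405). APLP2 and APP, transmembrane proteins of the amyloid precursor family, were lower, with 5.05 and 5.13% with ERM and 11.5 and 11.6% with NES for APLP2, at -0.53 (SE 0.0349, limma adjusted p = 1.77e-07), and a difference of -0.28 for APP. BSG, the surface glycoprotein basigin, named after its values were seen, stood at -0.56 (SE 0.051). Within depth bins, ITGB1 and APLP2 kept their direction, at 0.24 and -0.29, while APP did not pass, at -0.03 (adjusted p = 0.478).

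Solute carriers outside the mitochondrial SLC25 family gave 11 higher (22.4%) and 7 lower (14.3%) mRNAs of 49 tested out of 107 with a site in either table, with a median of 0.06. Their median depth bin was 4, and within depth bins 10 were higher and 2 lower. SLC38A1, a glutamine transporter, had 7.68 and 7.27% with ERM, against 10.8 and 10.5% with NES, and was higher, at 0.13 (SE 0.0348, limma adjusted p = 0.00928). SLC16A1, a lactate transporter, had 4.21 and 3.67% with ERM, against 7.64 and 7.73% with NES, and was lower, at -0.32 (SE 0.0514, limma adjusted p = 0.000374), but did not pass within depth bins, at -0.07 (adjusted p = 0.317).

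Tail-anchored membrane proteins, which enter the membrane after translation, had 6 higher (15.4%) and 6 lower (15.4%) mRNAs of 39 tested out of 48 listed, with a median of -0.06. Within depth bins 5 were higher and 3 lower, with a median of 0.00. MCL1, a BCL2 family protein of the mitochondrial outer membrane, had 4.37 and 4.64% with ERM, against 5.84 and 6.13% with NES, and was higher, at 0.24 (SE 0.0453, limma adjusted p = 0.00118). VAPA, an ER membrane protein at contact sites, had 10.8 and 10.9% with ERM, against 14.6 and 15.5% with NES, at 0.17 (SE 0.047, limma adjusted p = 0.0112), and its sign turned to -0.02 with the median of site rates. UBE2J1, a ubiquitin-conjugating enzyme of the ER, was higher, at 0.15 (SE 0.0466, limma adjusted p = 0.0233). SERP1 had 8.31 and 8.16% with ERM, against 12.4 and 12.6% with NES, over 222 sites, and did not pass the test, at 0.05 (SE 0.0316, limma adjusted p = 0.268), but was higher within depth bins, at 0.17 (adjusted p = 0.0019). The 2 SERP1 start sites printed above had log2 ratios of -1.01 and -1.78, both farther below 0 than the gene's -0.60 as deposited.

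Across the 8 lists of proteins made at the ER, 50 of 255 tested mRNAs were higher (19.6%) and 70 were lower (27.5%), with a median of -0.03. Over all tested genes the shares were 12.6% higher and 23.5% lower. Higher calls were thus more frequent in the ER lists, and the share of lower calls was near that of all genes. No test compared these counts. Across the 10 lists of cytosolic proteins, 9 of 304 were higher (2.96%) and 221 were lower (72.7%), with a median of -0.26. Cytosolic lists had a median depth bin of 10, against 7 in the ER lists. Within depth bins, 64 of the 255 ER mRNAs were higher and 32 lower, with a median of 0.04. Of the 304 cytosolic mRNAs, 41 were higher and 105 lower, with a median of -0.07. Over all tested genes 14.2% were higher and 13.7% lower in this setting, so lower calls were not more frequent in the ER lists there. The order of the 2 routes was thus kept, and the distance between their medians was smaller.

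**Figure D4:**
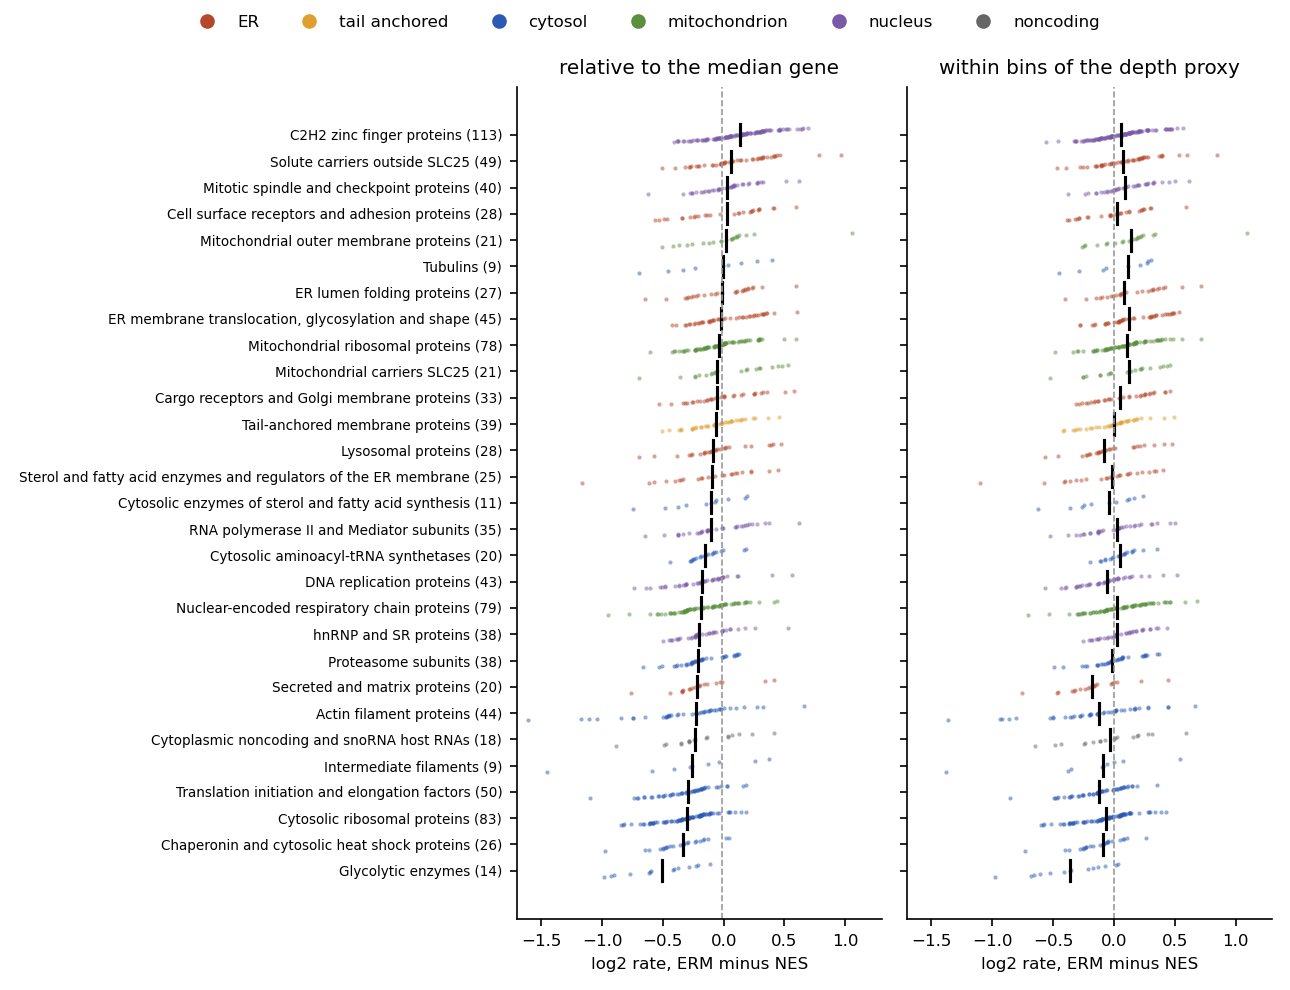
Log2 difference of each tested member of the gene lists, ERM minus NES, relative to the median gene (left) and with libraries centred within depth bins (right). Points are genes coloured by the route of their protein, black bars are list medians, the dashed line is the median of all tested genes and numbers in brackets are tested members; glycolytic enzymes have the lowest median in both panels.

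Glycolytic enzymes had the lowest median of the lists with at least 5 tested members, at -0.51, and -0.36 within depth bins. Of 14 tested out of 17 listed, 13 were lower (92.9%) and none higher, and 10 were lower within depth bins. GAPDH (chr12:6534540-6538356) had 2.12 and 2.16% with ERM, against 6.41 and 6.3% with NES, over 164 sites. Both ERM libraries were below both NES libraries at 163 of these, and the difference was -0.92 (SE 0.0378, limma adjusted p = 2.32e-09). ENO1 had 2.1 and 2.05% with ERM and 5.64 and 5.43% with NES, at -0.77 (SE 0.0327, limma adjusted p = 2.84e-09), and LDHA, a lactate dehydrogenase chain, stood at -0.60 (SE 0.0415). LDHB, the other main chain of that enzyme, had 2.76 and 2.72% with ERM, against 4.96 and 4.97% with NES, and was lower by less, at -0.21 (SE 0.0299, limma adjusted p = 0.000145), but did not pass within depth bins, at 0.03 (adjusted p = 0.4). Picked after their values were seen, PKM (pyruvate kinase) and PFKP (a phosphofructokinase) were lower, at -0.90 and -0.61, the second on 7 sites. GAPDH has many processed copies in the genome, so its reads may be shared.

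Cytosolic ribosomal proteins gave 1 higher (1.20%) and 68 lower (81.9%) mRNAs of 83 tested out of 84 listed, with a median of -0.30. Within depth bins 9 were higher and 26 lower, with a median of -0.06. Their median rate was 3.90% with ERM, against 7.65% with NES, and their median depth bin was 10. RPL4 had 3.24 and 3.16% with ERM, against 6.61 and 6.74% with NES, at -0.41 (SE 0.029, limma adjusted p = 3.09e-07). RPL15 was lower, at -0.19 (SE 0.0323, limma adjusted p = 0.000532), but did not pass within depth bins, at 0.05 (adjusted p = 0.241). RPL5 had 4.43 and 4.4% with ERM, against 6.62 and 6.76% with NES, did not pass the test at 0.05 (SE 0.0325, limma adjusted p = 0.247), was higher within depth bins, at 0.29 (adjusted p = 4.13e-05), and turned to -0.39 with the mean of log2 site rates. These mRNAs have many processed copies in the genome, so single values are uncertain.

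Translation initiation and elongation factors had 39 lower (78.0%) and 1 higher (2.00%) mRNAs of 50 tested out of 58 with a site, with a median of -0.29. Within depth bins 21 were lower and 2 higher. EEF1A1 had 1.97 and 1.9% with ERM, against 5.03 and 5.08% with NES, over 388 sites, at -0.73 (SE 0.0247, limma adjusted p = 3.62e-10). EEF2, the translocase of elongation, had 2.64 and 2.61% with ERM and 6.23 and 6.24% with NES, at -0.60 (SE 0.0229, limma adjusted p = 1.16e-09). EIF3A, a scaffold subunit of an initiation factor, was lower, at -0.42 (SE 0.0274, limma adjusted p = 1.76e-07). EIF5, which triggers GTP hydrolysis at the start codon, had 6.02 and 6.02% with ERM, against 10.8 and 11.1% with NES, and was lower, at -0.21 (SE 0.0265, limma adjusted p = 4.38e-05), but did not pass within depth bins, at 0.03 (adjusted p = 0.397). EEF1A1 has near-identical copies, so its reads may be shared.

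Chaperonin subunits and cytosolic heat shock proteins gave 24 lower (92.3%) and no higher mRNAs of 26 tested out of 27 listed, with a median of -0.34. Within depth bins 15 were lower and 3 higher. HSP90AA1 (chr14:102080812-102102072) had the most shared sites of any gene, 748, with 2.51 and 2.51% for ERM and 6.18 and 6.16% for NES. Both ERM libraries were below both NES libraries at 741 of its sites and above both at 4, and the difference was -0.65 (SE 0.018, limma adjusted p = 6.82e-11). The ER form HSP90B1, with 303 shared sites, stood at -0.27. HSPH1 and HSPA4, which exchange the nucleotide of HSP70, were lower, at -0.52 (SE 0.0234, limma adjusted p = 4.73e-09) and -0.42 (SE 0.0264, limma adjusted p = 1.39e-07). ST13, a cofactor of HSP70, was lower by less, at -0.17 (SE 0.0238, limma adjusted p = 0.000125), and higher within depth bins, at 0.07 (adjusted p = 0.0247).

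Actin filament proteins had 27 lower (61.4%) and 4 higher (9.09%) mRNAs of 44 tested out of 45 with a site, with a median of -0.23. Within depth bins 18 were lower and 9 higher. RDX, radixin, which links actin to the plasma membrane, had 9.2 and 9.76% with ERM, against 13.1 and 13.5% with NES, and was higher, at 0.16 (SE 0.0386, limma adjusted p = 0.00538). Among 9 tested intermediate filament mRNAs, 5 were lower (55.6%) and 1 was higher (11.1%), and 3 were lower and 1 higher within depth bins. VIM, vimentin, had 3.71 and 3.59% with ERM, against 8.76 and 8.5% with NES, at -0.59 (SE 0.0400, limma adjusted p = 2.19e-07). LMNB1, the nuclear lamin B1, was the higher one, with 6.9 and 6.95% for ERM and 8.52 and 8.29% for NES, at 0.37 (SE 0.0444, limma adjusted p = 3.36e-05). Within depth bins LMNB1 stood at 0.54. Of 9 tested tubulin mRNAs, 4 were lower (44.4%) and 1 was higher (11.1%), and 2 were lower and 2 higher with a median of 0.11 within depth bins. TUBB4B was lower, at -0.69 (SE 0.0651, limma adjusted p = 3.93e-06), and TUBA1B was lower, at -0.33 (SE 0.0468, limma adjusted p = 0.000129), but did not pass within depth bins, at -0.09 (adjusted p = 0.193). TUBA1C did not pass, at 0.03 (SE 0.0626, limma adjusted p = 0.717), and was higher within depth bins, at 0.28 (adjusted p = 0.00629). Reads may be shared among tubulin genes.

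Proteasome subunits gave 25 lower (65.8%) and no higher mRNAs of 38 tested out of 40 with a site, with a median of -0.21. Within depth bins, however, 6 were lower and 8 higher, with a median of -0.01. PSMD1, a large subunit of the regulatory particle, had 6.72 and 6.45% with ERM, against 13.7 and 13.5% with NES, at -0.39 (SE 0.0347, limma adjusted p = 2.28e-06), and -0.22 within depth bins. PSMB2, a subunit of the core particle, did not pass, at 0.11 (SE 0.0474, limma adjusted p = 0.0903), and was higher within depth bins, at 0.35 (adjusted p = 0.000215). Cytosolic aminoacyl-tRNA synthetases had 12 lower and 1 higher of 20 tested, and 1 lower and 5 higher within depth bins. IARS1, which charges isoleucine tRNA, had 5.34 and 5.34% with ERM, against 8.87 and 9.02% with NES, and was lower, at -0.10 (SE 0.0265, limma adjusted p = 0.0126), but higher within depth bins, at 0.15 (adjusted p = 0.00101). For these 2 lists the direction of the calls therefore depended on the centring.

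Nuclear-encoded mitochondrial proteins had 16 higher (8.04%) and 64 lower (32.2%) mRNAs of 199 tested, beside 12.6% and 23.5% of all tested genes. Their median of -0.07 lay between those of the ER and the cytosolic lists, but within depth bins it was 0.09, above the 0.04 of the ER lists, with 43 higher and 17 lower. Of 78 tested mitochondrial ribosomal proteins, 6 were higher (7.69%) and 15 lower (19.2%), and 13 were higher and 4 lower within depth bins. MRPL3 of this list had 5.55 and 5.76% with ERM, against 9.17 and 9.55% with NES, and did not pass the test, at -0.08 (SE 0.0403, limma adjusted p = 0.155), but was higher within depth bins, at 0.17 (adjusted p = 0.00742). Respiratory chain proteins gave 3 higher (3.80%) and 38 lower (48.1%) of 79 tested, and 18 higher and 9 lower within depth bins. ATP5F1B, the catalytic beta subunit of ATP synthase, was lower, at -0.30 (SE 0.0367, limma adjusted p = 3.46e-05), but did not pass within depth bins, at -0.06 (adjusted p = 0.244). CYCS, cytochrome c, did not pass, at -0.03 (SE 0.0385, limma adjusted p = 0.612), and was higher within depth bins, at 0.22 (adjusted p = 0.00106).

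Outer membrane proteins of mitochondria had 2 higher (9.52%) and 6 lower (28.6%) mRNAs of 21 tested out of 28 listed, with a median of 0.02. Within depth bins 7 were higher and 3 lower, with a median of 0.14. ACSL3, an acyl-CoA synthetase, did not pass, at 0.11 (SE 0.0503, limma adjusted p = 0.101), and was higher within depth bins, at 0.18 (adjusted p = 0.02). TOMM20, an import receptor, had 5.00 and 4.85% with ERM, against 8.71 and 8.68% with NES, and was lower, at -0.17 (SE 0.0253, limma adjusted p = 0.000199), but higher within depth bins, at 0.07 (adjusted p = 0.0397). VDAC1, the pore of that membrane, was lower, at -0.30 (SE 0.0457, limma adjusted p = 0.000239), but did not pass within depth bins, at -0.06 (adjusted p = 0.385). The SLC25 carriers of the inner membrane gave 5 higher (23.8%) and 5 lower (23.8%) of 21 tested, and 5 higher and 1 lower with a median of 0.13 within depth bins. SLC25A5, an ADP/ATP carrier with near-identical relatives, was lower, at -0.36 (SE 0.0416, limma adjusted p = 2.38e-05), but did not pass within depth bins, at -0.12 (adjusted p = 0.0507). SLC25A46, a family member placed in the outer membrane, had 12.2 and 12.5% with ERM, against 17.5 and 16.7% with NES, and was higher, at 0.18 (SE 0.0442, limma adjusted p = 0.00689).

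Nuclear proteins, translated in the cytosol, gave 37 higher (13.8%) and 68 lower (25.3%) mRNAs of 269 tested over 5 lists, with a median of -0.01, close to the 12.6%, 23.5% and -0.01 of all tested genes. Within depth bins, 47 were higher and 32 lower, with a median of 0.02. The lists differed among themselves. C2H2 zinc finger proteins had 21 higher (18.6%) and 10 lower (8.85%) of 113 tested out of 316 with a site, with a median of 0.14 and a median depth bin of 2. Within depth bins 13 were higher and 7 lower, with a median of 0.06. ZNF664 had 7.37 and 6.99% with ERM, against 9.27 and 9.57% with NES, and was higher, at 0.26 (SE 0.0335, limma adjusted p = 6.86e-05), while ZNF644 was lower, at -0.16 (SE 0.0328, limma adjusted p = 0.00213). By contrast, hnRNP and SR proteins, in the highest depth bins, gave 2 higher (5.26%) and 21 lower (55.3%) of 38 tested, and 13 higher and 6 lower within depth bins. SRSF1, a splicing factor, was lower, at -0.23 (SE 0.0268, limma adjusted p = 2.44e-05), but did not pass within depth bins, at 0.01 (adjusted p = 0.771). HNRNPC had 5.54 and 5.36% with ERM, against 8.91 and 8.98% with NES, did not pass the test at -0.07 (SE 0.025, limma adjusted p = 0.055), and was higher within depth bins, at 0.18 (adjusted p = 0.000206).

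Proteins of DNA replication had 3 higher (6.98%) and 22 lower (51.2%) mRNAs of 43 tested out of 44 listed, and 3 higher and 12 lower within depth bins. MCM6, a subunit of the replicative helicase, had 6.31 and 5.75% with ERM, against 13.4 and 13.4% with NES, at -0.51 (SE 0.0408, limma adjusted p = 1.01e-06). Mitotic spindle and checkpoint proteins had 7 higher (17.5%) and 7 lower (17.5%) of 40 tested, and 13 higher and 2 lower with a median of 0.09 within depth bins. CKAP5, a microtubule polymerase, was lower, at -0.33 (SE 0.0415, limma adjusted p = 4.86e-05), while CKAP2, a spindle protein, did not pass, at -0.01 (SE 0.0322, limma adjusted p = 0.761), and was higher within depth bins, at 0.16 (adjusted p = 0.00285). RNA polymerase II and Mediator subunits had 4 higher (11.4%) and 8 lower (22.9%) of 35 tested, near the 12.6% and 23.5% of all tested genes, and 5 higher and 5 lower within depth bins. POLR2A, the largest subunit, had 5.72 and 5.71% with ERM, against 14.1 and 13.9% with NES, at -0.65 (SE 0.0400, limma adjusted p = 1.06e-07), and -0.53 within depth bins.

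Cytoplasmic noncoding RNAs and host RNAs of small nucleolar RNAs gave 1 higher (5.56%) and 10 lower (55.6%) of 18 tested out of 23 listed, with a median of -0.24. Within depth bins 3 were higher and 4 lower. NORAD, a cytoplasmic RNA that binds Pumilio proteins, had 6.12 and 5.55% with ERM, against 11.3 and 12.1% with NES, over 197 sites, and was lower, at -0.35 (SE 0.045, limma adjusted p = 5.61e-05), and at -0.23 within depth bins. GAS5, a spliced host RNA of small nucleolar RNAs, had 5.3 and 5.42% with ERM, against 10.3 and 9.56% with NES, at -0.24 (SE 0.0633, limma adjusted p = 0.01), but did not pass within depth bins, at 0.00 (adjusted p = 0.975).

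The nuclear construct also has a value at sites called with all 3 constructs, of which there were 272035. No test was made with it. At 98 ACTG1 sites, NLS rates were 2.87 and 2.99%, beside 1.79 and 1.84% with ERM and 9.47 and 9.32% with NES at the same sites. At 327 HSPA8 sites they were 2.36 and 2.43%, beside 2.35 and 2.38% with ERM and 7.26 and 7.32% with NES, so ERM and NLS rates lay close together. For EIF4A2 the order was another one, with 14.9 and 15.3% for NLS, 3.12 and 3.12% for ERM and 10.5 and 10.4% for NES over 100 sites. For MCL1 it was 10.5 and 11.6% with NLS, 4.38 and 4.66% with ERM and 5.86 and 6.14% with NES, the NLS rate being the highest of the 3. For CANX, TRAM1 and TMED10 the NLS rate was the lowest of the 3, with 2.84 and 3.05% for CANX, 5.77 and 6.17% for TRAM1 and 4.17 and 4.48% for TMED10. At the same TMED10 sites ERM had 8.86 and 8.59% and NES had 10.7 and 11.8%. This order was not particular to ER mRNAs. The NLS rate was also the lowest for the cytosolic RPL5, at 2.63 and 2.61%, and LDHB, at 1.92 and 1.99%. For the ER proteins CALR and CALU it lay above the ERM rate. CALR had 3.73 and 3.80% with NLS and 3.29 and 3.29% with ERM, and CALU 7.86 and 8.11% with NLS and 5.89 and 5.94% with ERM. The genes of this paragraph are examples.

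At single sites the same direction held for most of the transcriptome. Both ERM libraries were below both NES libraries at 270651 of the 356643 shared sites (75.9%) and above both at 7104 (1.99%). Tested with limma on log2 of the rate in percent plus 1, 164348 sites (46.1%) were lower and 1026 (0.288%) higher as deposited. Relative to the median site, 0 sites (0.0%) passed in either direction, with 40167 sites higher and 26601 lower at an unadjusted p under 0.05. The log2 ratio of ERM over NES had a median of -0.84 over sites, and 90% of sites lay between -1.78 and 0.13. Its SD over all sites was 0.581. Within a gene the SD over sites had a median of 0.487 in the 4381 genes with at least 20 shared sites, and an SD of 0.375 comes from the spread between replicates alone. The within-gene SD is a median over these genes, whereas the replicate SD was pooled over all shared sites. Setting one against the other is therefore only a rough comparison. The gene differences had an SD of 0.275 over genes. A gene's value is a mean over its sites, which narrows the spread, so this SD cannot be set against those of single sites.

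Position along the gene went with part of this spread. RefSeq gene spans were matched by symbol for 98.2% of tested genes, and 347961 shared sites (98.7%) lay inside the span of their gene. Within 250 bases of the gene end, the median rate of sites was 8.44 and 8.16% with ERM, against 13.0 and 13.2% with NES. More than 8000 bases from it, the medians were 6.59 and 6.48% with ERM, against 12.7 and 12.6% with NES. In the bins between, the medians ran between 5.58 and 7.23% with ERM, and between 10.6 and 11.3% with NES. The ERM medians beyond 8000 bases were thus below those near the end, and the NES medians of these 2 bins lay close together. Relative to the gene's median site, the log2 ratio was 0.22 within 250 bases, 0.14 from 250 to 500, 0.07 from 500 to 1000, 0.03 from 1000 to 2000, 0.00 from 2000 to 4000, -0.04 from 4000 to 8000 and -0.06 beyond. Shared sites inside the windows around gene starts, described below, had a median of 0.16 by the same measure. Distance from the gene start was not binned. Distances were taken on the genome and include introns, and sites of 1 gene share their reads and libraries, so no test was made.

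The base before the changed adenosine went with the rate and with the difference. Sequence was at hand for 1372 shared sites inside RefSeq start windows, all of which fell on an A, and for 1344 of them both neighbouring bases lay in the window. A T preceded 692 of these (51.5%), whereas 12.7% of the 352064 adenosines in the 50 bases after all gene starts follow a T. An A preceded 68 sites (5.06%), against 23% of those adenosines. The windows also hold bases before the start, and the 1344 sites came from 744 genes. The sites and the adenosines they are set against thus differ in region and in genes. After a T, the median rate was 9.50 and 9.14% with ERM, against 14.9 and 14.7% with NES. After an A, it was 2.05 and 2.31% with ERM, against 6.30 and 5.96% with NES. The median log2 ratio was -0.67 after T and -1.49 after A, and both ERM libraries were below both NES libraries at 68.9% of the first and 92.6% of the second.

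Sites after C and G lay between, with 404 sites at a median log2 ratio of -0.88 after C and 180 sites at -0.88 after G. Relative to the median site of the same gene, the medians were 0.25 after T, 0.13 after C, 0.14 after G and -0.44 after A, over 53 genes for the last. The base after the adenosine separated less, with median log2 ratios from -0.84 before G to -0.71 before A. Of the 12 printed windows, EEF1A1 position +28 follows an A and had the lowest ratio. The CALR position +37, which follows a T, had the highest, at -0.33. These windows were chosen with their values known, so they do not bear on the difference between preceding bases. Among them ATF4 +32 and SERP1 +1, after a T, had -1.61 and -1.01, and TMED10 +34, after a C, had -0.64. The shared sites with sequence are near gene starts and mostly in genes of the highest depth bins. The part of depth in the difference between preceding bases was not tested.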

How the data were processed

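Poly(A) RNA of HEK293T cells with ERM_TadA-8e_GFP or NES_TadA-8e_GFP was compared, 2 libraries each. Per the submitters' processing notes, cutadapt, STAR, Bowtie2 and SAMtools were used with hg38, with no versions. The calling of sites is not given in the sources used here. Each deposited fraction is the share of changed reads per library, printed here in percent, without a count or depth beside it. The authors' adjusted p-value was under 0.05 in both libraries of every listed site. 

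Sites were joined on chromosome, position and strand. A gene's rate was the mean over its shared sites, for genes with at least 5. Differences of the log2 rate were tested with limma 3.58.1 in R 4.3.3, two-sided, with a variance trend on the log2 number of sites, each library centred on the median of the tested genes, and Benjamini-Hochberg adjustment over all 6883 genes. Sites were tested likewise on log2 of the rate in percent plus 1. The smallest adjusted p-value entered the depth proxy as 1e-300. Tests were tried on simulated data. Alternatives changed centring, the gene summary, pseudocount, filters, trend, replicate block and libraries. Centring within depth bins and the subset of sites by the proxy were added after the data had been seen.

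The members and lists were chosen with earlier results of these data known. Genes named are the 12 with the largest difference in each direction past the threshold with non-overlapping libraries, and at most 4 members per list by most shared sites. The rule names 142 genes, of which 95 are in the text, and 13 more were named after their values were seen. For sites the rule named none, since no site passed. Some genes that the rule selects are not reported here, and 1 gene was left out of the tests. No genome sequence or protein table was used, so the planned grouping by hydrophobic protein segments was not run. Tables were joined with pandas 2.3.3 and numpy 2.4.6 in Python 3.11.15, and plots drawn with matplotlib 3.10.9.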

Additional observations from a re-analysis of the deposited data

How the results depend on the processing

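The difference of library means was -5.62 percentage points, -2.08 over each construct's own sites, -5.15 for the median and -5.90 at sites also called with NLS, and between -5.71 and -5.53 with 1 library left out. The 867 higher and 1620 lower genes became 4 and 6279 as deposited, 570 and 1038 with limma without a trend, and 976 and 941 within depth bins. Leaving out 1 library gave 457 to 758 higher and 1207 to 1395 lower genes. With the replicate number as a block, 839 genes were higher and 1585 lower. The deviations of same-numbered libraries had a correlation of -0.02 over genes, so these libraries did not deviate together. This value cannot show whether they were made together. At sites, the counts of 0 and 0 became 1026 higher and 164348 lower as deposited, and 17462 and 1037 with 5 in place of 1 added to the rate. They stayed at 0 with the replicate block, a minimum rate of 5%, each library left out and the sites of genes in the upper depth bins.

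Within depth bins, the sign turned for GAS5 (0.0038), LAMC1 (0.0041), SRSF1 (0.012), STT3B (0.022), EIF5 (0.030), LDHB (0.035), RPL15 (0.054), TOMM20 (0.074), ST13 (0.075), HSD17B12 (0.12), IARS1 (0.15), CKAP2 (0.16), MRPL3 (0.17), ACLY (0.17), HNRNPC (0.18), CYCS (0.22) and SCD (0.23). As deposited, it turned for SEL1L (-0.048), SDF2L1 (-0.053), LMNB1 (-0.28), LBR (-0.33), PDIA4 (-0.33), SSR3 (-0.34), TMED10 (-0.35), ZNF664 (-0.39), TRAM1 (-0.40), MCL1 (-0.41), SLC25A46 (-0.47), LAMP2 (-0.47), VAPA (-0.47), GGPS1 (-0.48), RDX (-0.49), UBE2J1 (-0.50), SLC38A1 (-0.52), ITGB1 (-0.53), RCN1 (-0.54), PSMB2 (-0.54), ACSL3 (-0.54), SC5D (-0.59), CANX (-0.60), RPL5 (-0.60), SERP1 (-0.60) and TUBA1C (-0.62). With the mean of log2 site rates it turned for LAMC1 (0.0040), SERP1 (-0.016), PSMB2 (-0.044), CANX (-0.075) and RPL5 (-0.39), with the median of site rates for SCD (0.0019), VAPA (-0.024), PSMB2 (-0.053), CANX (-0.12), LAMC1 (0.18) and RPL5 (-0.30), and with no minimum number of sites for SERP1 (-0.00081) and TUBA1C (-0.016). With 1 added to the rate in percent it turned for HSD17B12 (0.010), CYCS (0.013), CKAP2 (0.013) and SCD (0.050), with at least 10 sites for SCD (0.0083), CKAP2 (0.011) and HSD17B12 (0.024), and with the authors' adjusted p under 0.001 for PSMB2 (-0.0079), SCD (0.023) and HSD17B12 (0.042). With 1 library left out, values ran between -0.0054 and 0.069 for TUBA1C, -0.046 and 0.018 for CKAP2, -0.059 and 0.056 for HSD17B12, -0.069 and 0.015 for CYCS, -0.10 and 0.035 for LAMC1, and -0.14 and 0.11 for SCD. As-deposited centring shifts every gene by the median, and the cause of the other changes was not tested. Without a trend, 22 of the 108 named genes no longer passed. Depth limits sites of low rate, which are absent from a table when not called.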

Other observations

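On the mitochondrial chromosome, 85 sites were called with ERM and 58 with NES, and 4 were in both tables. The median rate of these sites was 0.223 and 0.208% in the ERM libraries, against 0.132 and 0.134% in the NES libraries, each over its own sites. The highest was 14.5 and 17.3% with ERM, against 4.64 and 4.54% with NES. ND4, a subunit of respiratory complex I encoded by mitochondrial DNA, had 14 sites with ERM and 3 with NES. COX1, a subunit of cytochrome oxidase, had 10 with ERM and 12 with NES, and the ribosomal RNA RNR2 had 16 with ERM and 13 with NES. With 4 shared sites, no gene of this chromosome reached the minimum for a test.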
